A study of Mus musculus with 24 samples.

Results

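Described here is what 18 h without food changed in the liver transcriptome of floxed control mice, in 10 of the 24 libraries of the study. The 5 fed libraries came from mice with free access to food and the 5 fasted libraries from mice without food for 18 h. Both groups carried the floxed Gpt2 allele (fl/fl in the sample titles) and are labelled control. The study also holds liver knockouts of Gpt2, which encodes a transaminase that interconverts alanine and pyruvate. For the control mice the sources used here give no agent or Cre allele, and for neither genotype an age, a strain or the driver of the deletion. All sample titles hold the letter M, which was not taken as a stated sex. The labels do not state that each library is a separate animal, so p-values measure the spread between libraries. Members were chosen by label: control fed replicates 1 to 5 and control fasted replicates 1, 2, 3, 5 and 6. Of the remaining control libraries, the gene table of fed replicate 6 stops within chromosome 1. Fasted replicate 4 held 304704 reads of Kap, a kidney androgen-regulated gene, and 5307 of Alb, against at most 413 Kap reads and at least 1514573 Alb reads in the 10 libraries used.

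In a fed liver, insulin favours glycogen storage and the making of fatty acids and sterols through SREBP and ChREBP transcription factors. During a fast, glucagon and glucocorticoids rise and adipose tissue releases fatty acids. These enter hepatocytes, activate the nuclear receptor PPARα and are burned in mitochondria and peroxisomes or turned into ketone bodies, while glucose is made from lactate, glycerol and amino acids.

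Read totals lay between 27.7 and 40 M in the fed and between 19.9 and 46.5 M in the fasted libraries. Levels are given as CPM, counts per library size scaled by TMM, and values follow the order of replicate numbers. Changes are log2 fold changes of fasted over fed with their standard errors (SE). A call means that edgeR's quasi-likelihood test, adjusted by Benjamini-Hochberg, gave p under 0.05 over 16757 genes. Of these, 668 (3.99%) rose and 692 (4.13%) fell, 8.12% in all, with median log2 fold changes of 0.79 and -0.76. At least 2-fold changes were held by 241 and 233 of them, 1.44% and 1.39% of all genes tested. In 478 of the genes that rose and 506 of those that fell, no fasted library overlapped a fed one, which held for 3.87% (above) and 4.03% (below) of all genes tested, 7.91% in all. The first principal component of the 500 most variable genes, 25.6% of their variance, placed the fed libraries between -35.7 and -14.2 and the fasted ones between 15.4 and 29.1. Neither the share of reads in the 20 most abundant genes nor that of the mitochondrial genome differed past the threshold (exact two-sided permutation p = 0.857 and 0.302, 5 against 5, where the smallest p possible is 0.00794). A fasted library held 17642 ± 364 genes with a read and a fed one 16831 ± 560 (mean ± SD, n = 5 each; exact permutation p = 0.0317, 0.0952 after adjustment over these 3 values). Median read totals were 39.3 M fasted and 29.2 M fed, and the part of depth in this difference was not tested. A CPM of at least 1, without TMM scaling, was reached by 11918 to 12409 genes in fasted and 12240 to 12695 in fed libraries. With fasted replicate 4 included, 805 genes were called, 711 of them among the 1360.

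**Figure D1:**
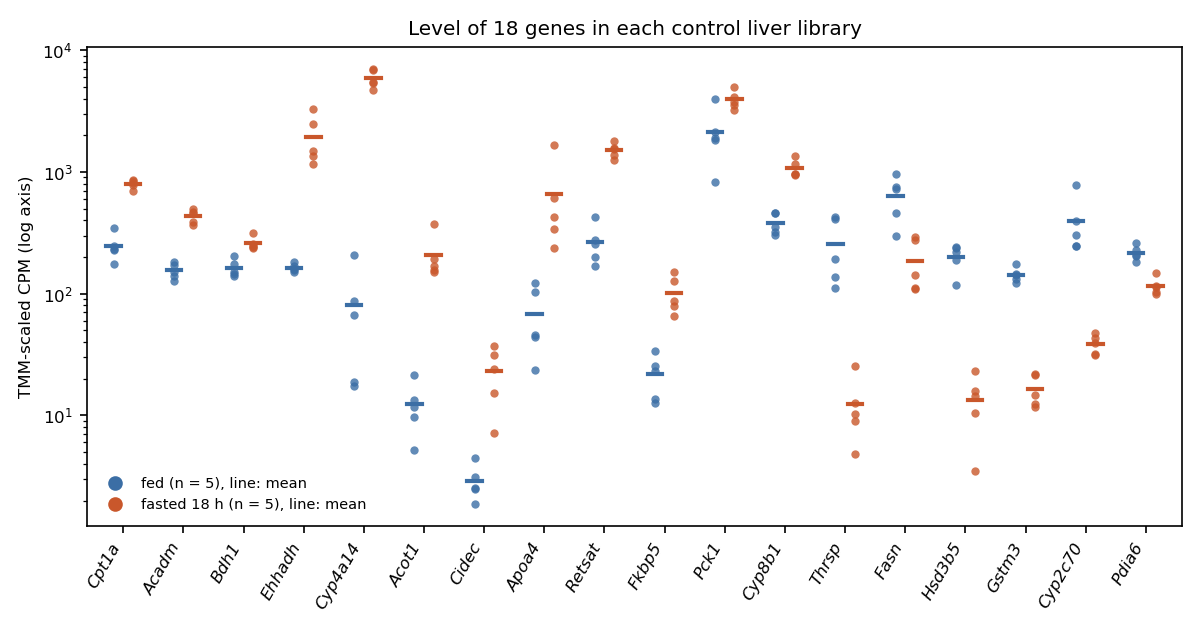
Each point is 1 library, in TMM-scaled CPM on a log axis, for 18 genes in fed (blue) and fasted (orange) control livers, and each line is the mean of 5. Cyp4a14 sits between 17.6 and 209 CPM in fed and between 4679 and 7022 CPM in fasted libraries, while the Pck1 libraries of the fed and fasted groups overlap.

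The targeted gene itself responded to the fast in the control livers. Gpt2 stood at 363, 389, 307, 347 and 447 CPM in the fed and 698, 795, 727, 707 and 557 CPM in the fasted libraries (log2 fold change 0.91 ± 0.20 SE, edgeR adjusted p = 0.00324). The groups did not overlap. Its paralog Gpt, which encodes the cytosolic transaminase, was at 379.9, 365, 373, 383 and 498 CPM fed and 256, 298, 361, 268 and 316 CPM fasted and was not called (log2 fold change -0.42 ± 0.14 SE, edgeR adjusted p = 0.0517), although no library of one group overlapped the other. That p lay close to the threshold, and DESeq2 (adjusted p = 0.0448) and edgeR without fasted replicate 3 (0.0305) called Gpt as lower.

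Genes that carry fatty acids into mitochondria and break them down rose together. Of 9 tested genes of the carnitine shuttle and carnitine supply, 6 rose and none fell (median log2 fold change 0.89), and of 19 genes of mitochondrial fatty acid oxidation 12 rose and none fell (median 0.999), beside 3.99% of all genes that rose and a median of 0.00. Cpt1a, whose product couples long-chain fatty acids to carnitine and limits their entry into mitochondria, was at 229, 347, 177, 235 and 245 CPM in the fed libraries. The fasted libraries held 785, 847, 865, 807 and 691 CPM (log2 fold change 1.70 ± 0.14 SE, edgeR adjusted p = 6.94e-10). All fasted values lay above the highest fed one. Slc25a20, the carrier that takes acylcarnitines across the inner membrane, went from 56.5, 74.8, 60.9, 53.8 and 50.9 CPM to 145, 155, 145, 162 and 129 CPM (log2 fold change 1.31 ± 0.11 SE, edgeR adjusted p = 6.94e-10). Crat, which makes and splits short acylcarnitines, changed most in this list, from 27.0, 37.1, 32.0, 13.6 and 26.1 CPM to 181, 167, 151, 176 and 127 CPM (log2 fold change 2.56 ± 0.23 SE, edgeR adjusted p = 6.22e-08). Slc22a5, the carnitine importer of the cell surface, Crot and Cpt2 rose by 1.84, 0.89 and 0.82 on the log2 scale. Aldh9a1, a dehydrogenase of carnitine synthesis, had a log2 fold change of 0.09 and was not called.

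Acsl1, which activates long-chain fatty acids to acyl-CoA, had the smallest p of all genes. Its fed libraries held 669, 778, 721, 760.2 and 604 CPM and its fasted ones 1968, 1942, 2383, 2253 and 1769 CPM (log2 fold change 1.55 ± 0.12 SE, edgeR adjusted p = 1.09e-10). The spread within each group was small against the step between them. Acadm, the medium-chain dehydrogenase of the first oxidation step, stood at 152, 182, 140.0, 173 and 127 CPM fed and 459.6, 471, 365, 499 and 391 CPM fasted (log2 fold change 1.50 ± 0.12 SE, edgeR adjusted p = 5.83e-10). The 2 subunits of the trifunctional protein, which carries out the later steps on long chains, rose by 1.01 (Hadha) and 1.38 (Hadhb) on the log2 scale, and Etfdh, which passes the electrons to the respiratory chain, by 0.97. The short-chain members Acads (0.17) and Echs1 (-0.33) and the electron carriers Etfa (0.13) and Etfb (0.19) were not called, though Echs1 was called as lower by DESeq2 (adjusted p = 0.0382) and by edgeR without fed replicate 5 (0.0358) or fasted replicate 1 (0.0403). Pdk4, a kinase that blocks pyruvate oxidation, was at 5.36, 5.28, 5.88, 3.09 and 6.44 CPM fed and 8.38, 11.8, 6.21, 18.0 and 10.96 CPM fasted, ranges that overlap (log2 fold change 1.08 ± 0.66 SE, edgeR adjusted p = 0.423). With only the control groups fitted Pdk4 was called as higher (edgeR adjusted p = 0.0160), as it was without knockout fasted replicate 4 (0.0258).

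Ketone body genes followed the same course, with 6 of 8 higher and none lower (median 0.76). Bdh1, which completes the pathway, went from 174, 202, 150.02, 145 and 139 CPM to 313, 244, 242, 237 and 258 CPM (log2 fold change 0.68 ± 0.14 SE, edgeR adjusted p = 0.00121), and Acat1, which feeds it, rose by 0.78 on the log2 scale. The monocarboxylate carriers Slc16a1 and Slc16a7, which move ketone bodies and lactate through the plasma membrane, rose by 1.14 and 0.86. Slc16a6, another carrier of the family, had a log2 fold change of -0.43 and was not called.

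Peroxisomes shorten very long and branched fatty acids, and of 24 of their genes 12 rose and 1 fell (median 0.50). Ehhadh, the bifunctional enzyme of the pathway, was at 169.7, 181, 151, 159 and 158 CPM in the fed libraries, a narrow range. In the fasted libraries it was at 1484, 2452, 1358, 3275 and 1149.6 CPM (log2 fold change 3.57 ± 0.34 SE, edgeR adjusted p = 7.87e-07), a range that spans replicates 5 and 2 at the top and replicate 6 at the bottom. Pex11a, which takes part in the division of peroxisomes, rose by 1.44 on the log2 scale, whereas the biogenesis genes Pex5, Pex13 and Pex14 had values between 0.07 and 0.29 and were not called. The 1 member that fell was Nudt7, a peroxisomal hydrolase that degrades coenzyme A, at 400.2, 388, 629, 398 and 413 CPM fed and 49.0, 42.5, 81.2, 61.7 and 69.7 CPM fasted (log2 fold change -2.87 ± 0.35 SE, edgeR adjusted p = 2.04e-05). On the same metabolic axis, Vnn1, a pantetheinase that recycles the precursor of coenzyme A, rose by 2.61 and Pank1, which starts coenzyme A synthesis, by 0.53.

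Steep rises were found among neighbouring gene copies of 2 families. On chromosome 4 (GRCm38), Cyp4a14 (bases 115486200 to 115496142), Cyp4a10 (bases 115518264 to 115533649), Cyp4a31 (bases 115563649 to 115579015) and Cyp4a32 (bases 115600969 to 115621602) lie near each other and encode fatty acid omega-hydroxylases. Cyp4a14 was at 87.4, 209, 17.6, 67.0 and 18.9 CPM in fed and 5357, 6825, 5458, 7022 and 4679 CPM in fasted libraries (log2 fold change 6.20 ± 0.74 SE, edgeR adjusted p = 1.55e-05). Fed replicate 2 was the highest of its group, and every fasted library stood far above it. Cyp4a10 went from 196, 358, 95.2, 172 and 103 CPM to 3503, 5235, 3771, 3768 and 3270.1 CPM (log2 fold change 4.40 ± 0.35 SE, edgeR adjusted p = 7.06e-08). Cyp4a31 and Cyp4a32 rose by 4.45 and 2.74 on the log2 scale. Per kilobase, the fasted means were 2219 ± 367 RPKM for Cyp4a14, 1823 ± 337 for Cyp4a10, 144 ± 39.1 for Cyp4a32 and 83.9 ± 25.7 for Cyp4a31 (SD, n = 5). Cyp4a14 was above Cyp4a10 in 5 of 5 fasted libraries, and both stood above the other pair. Cyp4a12a (bases 115299046 to 115332815), at lower coordinates of the same chromosome, was not called (-0.63), and of the Cyp4f genes Cyp4f14 fell from 295, 269, 232, 313 and 231 CPM to 125, 67.6, 82.6, 75.8 and 86.6 CPM (log2 fold change -1.61 ± 0.14 SE, edgeR adjusted p = 9.85e-10). In the whole Cyp4 list 5 of 14 rose and 1 fell.

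Acyl-CoA thioesterases release free fatty acids from coenzyme A. Of 14 tested genes 6 rose and 2 fell, and 5 of the 6 form a row on chromosome 12: Acot2 (bases 83987861 to 83993873), Acot1 (bases 84009502 to 84017670), Acot4 (bases 84038379 to 84044723), Acot3 (bases 84052144 to 84059565) and Acot5 (bases 84069325 to 84076020). Acot1 stood at 11.7, 21.5, 9.65, 13.5 and 5.16 CPM fed and 191, 168, 158, 370.4 and 152 CPM fasted (log2 fold change 4.08 ± 0.39 SE, edgeR adjusted p = 9.74e-07). Acot3 was at 0.148, 1.85, 0, 2.88 and 2.59 CPM fed and 54.1, 31.4, 50.5, 47.8 and 45.4 CPM fasted (log2 fold change 4.95 ± 0.82 SE, edgeR adjusted p = 5.36e-04). Both were several-fold higher in each fasted library than in any fed one. Acot5 gave 0, 0, 0, 0 and 1 reads in the fed and 98, 47, 76, 156 and 52 reads in the fasted libraries. Acot2 and Acot4 rose by 3.42 and 2.33, while Acot11, elsewhere in the genome, fell by 2.06 on the log2 scale. The members of both families are close paralogs, and how the deposited counting shared reads between them is unknown from the sources used here, so the division among copies is uncertain.

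Genes of lipid droplets, the stores that take up the incoming fat, and of lipolysis rose in 10 of 22 cases and fell in 1 (median 0.78). Cidec, a protein that enlarges droplets, went from 1.88, 3.14, 4.49, 2.53 and 2.51 CPM to 7.20, 31.6, 23.9, 36.9 and 15.3 CPM (log2 fold change 2.98 ± 0.46 SE, edgeR adjusted p = 1.82e-04). Fasted replicate 1 was the lowest of its group but above all fed libraries. Plin2, the main coat protein of hepatocyte droplets, was at 304, 452, 316, 271 and 258 CPM fed and 489, 637, 693, 725 and 542 CPM fasted (log2 fold change 0.95 ± 0.18 SE, edgeR adjusted p = 9.70e-04). The coat proteins Plin4 and Plin5 rose by 2.64 and 1.58 on the log2 scale. Limma voom did not call Plin4 (adjusted p = 0.0540). The member that fell, Plin3, by 0.64, lost its call without fed replicate 2 or fasted replicate 2, 3 or 5 (edgeR adjusted p of 0.0672, 0.0561, 0.0730 and 0.0530). The lipases of the 2 ends of triglyceride breakdown both rose, Pnpla2 by 0.996 and Mgll by 1.59. G0s2, an inhibitor of Pnpla2, overlapped between groups at 48.0, 28.5, 40.2, 9.46 and 79.1 CPM fed and 55.4, 41.0, 211, 257 and 166 CPM fasted and was not called (log2 fold change 1.83 ± 0.66 SE, edgeR adjusted p = 0.107), although DESeq2 called it as higher (adjusted p = 0.0325). Pnpla3 gave 0, 0, 29, 10 and 20 reads fed and 0, 0, 0, 0 and 1 fasted and was not called (edgeR adjusted p = 0.0589), while DESeq2 called it as lower (adjusted p = 0.0126), as did edgeR without fed replicate 1 (0.0435) or 2 (0.0432).

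**Figure D2:**
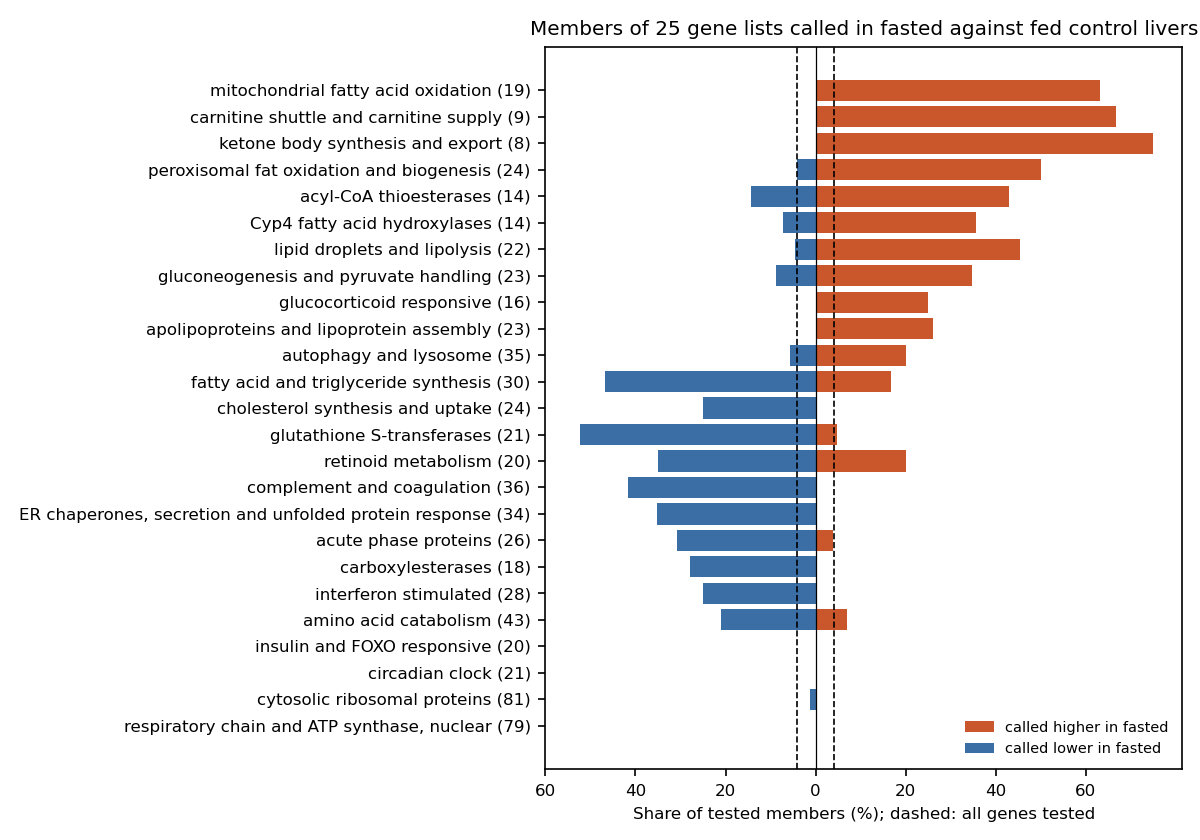
Bars give the percent of tested members (number in brackets) of 25 gene lists called higher (orange, right) or lower (blue, left) in fasted control livers, and dashed lines give the 3.99% and 4.13% of all genes called each way. Fat oxidation and ketone lists extend to the right, lipid synthesis, glutathione transferase and plasma protein lists to the left, and the clock and respiratory chain lists are empty.

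Of 30 tested genes that build fatty acids and triglycerides 14 fell and 5 rose (median -0.50), against 4.13% of all genes that fell. Thrsp, a regulator of lipogenesis, fell from 191, 136, 428, 112 and 412 CPM to 12.7, 25.5, 4.85, 8.93 and 10.3 CPM (log2 fold change -4.38 ± 0.58 SE, edgeR adjusted p = 5.27e-05). Srebf1, which encodes the transcription factor SREBP1, was at 413, 227, 358, 209 and 716 CPM fed and 98.2, 45.3, 65.6, 36.6 and 94.6 CPM fasted (log2 fold change -2.50 ± 0.37 SE, edgeR adjusted p = 1.93e-04). The fed libraries ranged widely in both genes and still stayed above every fasted one. Acly, which makes cytosolic acetyl-CoA from citrate, had the smallest p among the genes that fell, at 314, 292, 344, 279.5 and 386 CPM fed and 117, 129.5, 82.8, 78.5 and 102 CPM fasted (log2 fold change -1.67 ± 0.14 SE, edgeR adjusted p = 6.94e-10). Fasn, the fatty acid synthase, stood at 749, 456, 723, 298 and 955 CPM fed and 277, 293, 109.6, 110.3 and 143 CPM fasted (log2 fold change -1.77 ± 0.34 SE, edgeR adjusted p = 0.00201), with fed replicate 4 just above the highest fasted library. Scd1, a desaturase, fell from 2935, 2566, 3456, 2271 and 2762 CPM to 649, 704, 799.7, 955 and 1222 CPM (log2 fold change -1.69 ± 0.27 SE, edgeR adjusted p = 3.03e-04), from a mean of 2798 to one of 866 CPM. Acss2, Mid1ip1 and Slc25a1, which supply acetyl-CoA, activate acetyl-CoA carboxylase and export citrate, fell by 1.85, 1.97 and 0.65 on the log2 scale. The members that rose act on polyunsaturated chains (Elovl5 by 1.68, Elovl2 by 0.92 and Fads2), join the last acyl chain to triglyceride (Dgat1 by 0.72) or retain SREBP in the endoplasmic reticulum (Insig2). That count of 5 was 3 without fed replicate 3 or fed replicate 4. Gpam and Dgat2, also of triglyceride assembly, had values of -0.22 and -0.31 and were not called, though Dgat2 was called as lower without fasted replicate 1 (edgeR adjusted p = 0.0342).

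The promoter windows of RefSeq (GRCm38.p6, 250 bases before to 50 after a gene's start) were searched on both strands for the SREBP-type motif TCACNCCAC and the motifs given below. The SREBP-type motif stood in 3.20% of 532 genes that fell, 2.03% of 493 that rose and 1.47% of all 11359 tested genes with a window. Genes were counted and not the 14514 windows, and a gene held a motif if any of its windows did. Of 20 called genes of fatty acid and sterol synthesis that fell, 16 had a window and 1 held the motif, Mlxipl, which encodes the carbohydrate-responsive factor ChREBP and fell by 0.50 on the log2 scale. Its stretch at chr5:135106725-135106793 on the plus strand, ahead of the gene, is shown with the motif, 136 to 128 bases before the start, in capitals.
Mlxipl: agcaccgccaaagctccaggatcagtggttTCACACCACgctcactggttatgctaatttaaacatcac
A match is a description of letters and not of binding. Of the other motifs searched, AGGNCA and its repeat 1 base on, of the PPAR and RXR type, stood in 0.203% of genes that rose and 0.370% of all. GNACA and TGTNC 3 bases apart, of the glucocorticoid receptor type, stood in 0.203% and 0.449%. TGACGTCA, of the CREB type, stood in 3.25% and 3.39%, and CACGTG, the E-box, in 11.6% and 11.2%. Among genes that fell the same motifs stood in 0.564%, 0.940%, 0.564% and 11.7%. Of 57 called genes that rose in the lists from the carnitine shuttle to lipid droplets, 43 had a window and 0 held the PPAR and RXR type.

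Sterol synthesis split the fasted libraries. Of 24 genes of cholesterol synthesis and uptake 6 fell and none rose (median -0.93), and the median of the list relative to the fed mean was 0.16, -0.55, -1.99, -1.50 and -1.87 in fasted replicates 1, 2, 3, 5 and 6. In the fed libraries it was 0.66, -0.03, -0.29, 0.14 and -0.46, so replicate 1 of the fasted group lay within the fed range and replicate 2 just below it. Ebp, a sterol isomerase, fell in all fasted libraries alike, from 255, 227, 169, 268 and 195 CPM to 123, 130.4, 126, 117 and 122 CPM (log2 fold change -0.85 ± 0.12 SE, edgeR adjusted p = 6.80e-06). Sc5d and Pmvk, also of the pathway, fell by 1.33 and 1.59 on the log2 scale. Fdps, which makes farnesyl diphosphate, was at 413, 240.1, 209.8, 349 and 164 CPM fed and 155, 102, 12.6, 32.1 and 26.2 CPM fasted (log2 fold change -2.07 ± 0.62 SE, edgeR adjusted p = 0.0457), and kept its call only without fed replicate 5 or fasted replicate 1 among the 10 fits that each left out 1 of these libraries (edgeR adjusted p up to 0.115). With only the control groups fitted it was 0.140. Without fasted replicate 1, 11 of the list's genes fell.

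**Figure D3:**
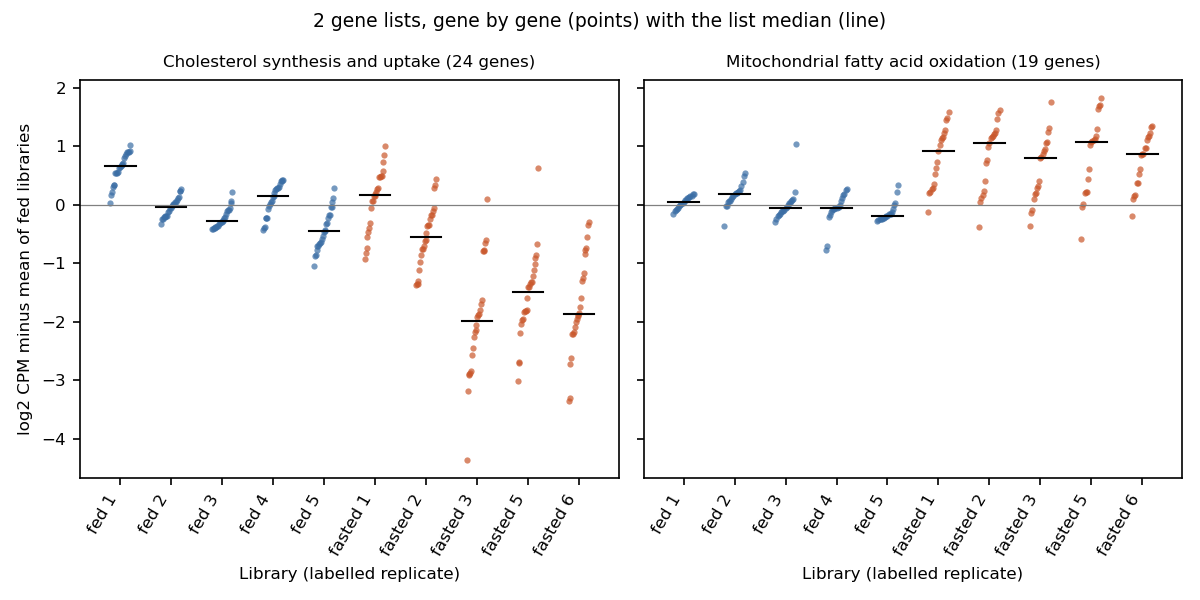
Points are genes, as log2 CPM minus the mean of the fed libraries, and black lines list medians, for 24 cholesterol genes (left) and 19 genes of mitochondrial fatty acid oxidation (right) in each library. The cholesterol medians of fasted replicates 3, 5 and 6 lie at -1.99, -1.50 and -1.87 and that of replicate 1 at 0.16, whereas the oxidation medians lie between 0.81 and 1.06 in all 5 fasted libraries.

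Of 23 genes of gluconeogenesis and pyruvate handling 8 rose and 2 fell (median 0.35). Gk, which phosphorylates glycerol, was at 39.7, 54.8, 38.7, 44.7 and 38.1 CPM fed and 164, 128, 89.0, 148 and 110.2 CPM fasted (log2 fold change 1.57 ± 0.17 SE, edgeR adjusted p = 1.72e-07). Gpd1, the next enzyme for glycerol, went from 322, 353, 323, 244 and 293 CPM to 619.6, 582, 486, 683 and 572 CPM (log2 fold change 0.94 ± 0.11 SE, edgeR adjusted p = 4.36e-07). Pcx, the pyruvate carboxylase, rose by 0.85 on the log2 scale, and Mpc2, a pyruvate importer of mitochondria, by 0.68. Its partner Mpc1 rose by 0.54, with an edgeR adjusted p of 0.0809 without fasted replicate 1. Pck1, which makes phosphoenolpyruvate, was at 1897, 3983, 828, 1843 and 2127 CPM fed and 3552, 4129, 5006, 3235 and 3767 CPM fasted and missed the threshold in edgeR (log2 fold change 0.88 ± 0.28 SE, edgeR adjusted p = 0.0553). Fed replicate 2 lay inside the fasted range, and without it the edgeR adjusted p was 5.89e-04. DESeq2 and limma voom called Pck1 as higher (adjusted p = 0.0175 and 0.0295). G6pc, whose product frees glucose, was at 265, 293, 76.4, 183 and 213 CPM fed and 78.4, 229, 328, 399 and 262 CPM fasted (log2 fold change 0.33 ± 0.41 SE, edgeR adjusted p = 0.765), and fasted replicate 1 was as low as the lowest fed library. Fbp1 had a log2 fold change of 0.37 and an adjusted p of 0.0535 in edgeR and of 0.0262 in DESeq2.

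Of 23 genes of glycolysis and glucose uptake 1 rose and 1 fell, a share near the 8.12% of all genes. Pklr, the liver pyruvate kinase, fell from 126, 127, 186, 87.9 and 159.6 CPM to 62.2, 104, 39.3, 62.9 and 45.1 CPM (log2 fold change -1.13 ± 0.32 SE, edgeR adjusted p = 0.0341), and kept its call only without fed replicate 4 or fasted replicate 2 among the 10 fits with 1 library left out (edgeR adjusted p up to 0.0942). Among 16 glycogen genes, Pygl, the phosphorylase, fell from 402, 409, 462, 358 and 475 CPM to 189.7, 273, 219, 178 and 228 CPM (log2 fold change -0.95 ± 0.15 SE, edgeR adjusted p = 5.16e-05), while Gys2, the liver synthase, rose by 0.70 and the lysosomal glucosidase Gaa by 0.57 on the log2 scale. In a list of 20 genes for the citric acid cycle, which also holds the cytosolic Idh1 and Mdh1 from outside the cycle, 4 rose and 4 fell. Cs, the synthase that opens the cycle, fell by 0.52, Idh1 by 0.55 and Mdh1 by 0.45, and the mitochondrial Suclg1 rose by 0.44. The non-oxidative pentose phosphate enzymes Tkt and Taldo1 fell by 0.82 and 0.60 and the oxidative enzyme Pgd by 0.81.

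Of 43 genes of amino acid catabolism 9 fell (5 without fasted replicate 5) and 3 rose. Prodh and Aldh4a1, consecutive steps of proline breakdown, fell by 1.13 and 0.73 on the log2 scale. Haao and Ido2, of the tryptophan pathway, fell by 0.89 and 1.06, whereas Tdo2, its first liver enzyme, rose by 0.52. Mat1a, which makes S-adenosylmethionine, had the largest rise of this list, from 2327, 2023, 1769.8, 2316 and 2574 CPM to 6453, 9504, 6157, 7187 and 5515 CPM (log2 fold change 1.66 ± 0.14 SE, edgeR adjusted p = 5.38e-10), and ranked among the 10 largest gains in CPM of all called genes. Of 10 genes of the urea cycle and its carriers 3 rose and 2 fell: Asl rose by 1.24, the glutamate carrier Slc25a22 by 1.07 and the aspartate-glutamate carrier Slc25a13 by 0.67, and Otc fell from 340.4, 301, 327, 348 and 312 CPM to 185, 211, 192, 198 and 211 CPM (log2 fold change -0.71 ± 0.12 SE, edgeR adjusted p = 1.41e-04). The entry enzyme Cps1 was at 3611, 3092, 3173, 3649 and 4130.3 CPM fed and 3283, 4091, 4459.8, 3289 and 3198 CPM fasted (log2 fold change 0.05 ± 0.13 SE, edgeR adjusted p = 0.899). Of 23 amino acid transporters 1 rose and 2 fell, among them Slc38a3, a glutamine carrier, by 0.68. Sds, the serine dehydratase of gluconeogenesis, overlapped between groups at 98.5, 114, 74.3, 66.0 and 152 CPM fed and 66.0, 75.9, 127, 62.3 and 104 CPM fasted (log2 fold change -0.21 ± 0.27 SE, edgeR adjusted p = 0.764).

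Hormone-responsive genes were mixed. No gene of 20 in the insulin and FOXO list was called by edgeR, beside 8.12% of all genes. An unadjusted p under 0.05 was held by 5 of them, beside 19.6% of all genes. DESeq2 called 2 (Irs2 and the insulin receptor gene Insr) and limma voom 1, Irs2 (adjusted p = 0.00591). Igfbp1 stood at 81.0, 173, 7.78, 33.7 and 4.85 CPM fed and 231, 445, 86.4, 218 and 102 CPM fasted (log2 fold change 1.85 ± 0.88 SE, edgeR adjusted p = 0.253), and Irs2, the insulin receptor substrate, at 23.5, 30.1, 8.09, 12.2 and 4.24 CPM fed and 30.1, 25.6, 42.9, 38.7 and 44.1 CPM fasted (log2 fold change 1.22 ± 0.37 SE, edgeR adjusted p = 0.0507). In both genes fed replicate 2 reached into the fasted range. Without that library edgeR called Irs2 as higher (adjusted p = 0.00693). It also did so with RLE factors (0.0494) and with only genes of a mean CPM of at least 1 (0.0333). Of 16 glucocorticoid-responsive genes 4 rose and none fell (median 0.87). Fkbp5, a co-chaperone of the glucocorticoid receptor, went from 12.7, 33.7, 13.8, 25.4 and 23.3 CPM to 151, 126, 79.6, 87.7 and 65.0 CPM (log2 fold change 2.23 ± 0.34 SE, edgeR adjusted p = 2.43e-04). Mt1, a metallothionein, was at 31.1, 26.6, 24.3, 86.8 and 29.0 CPM fed and 239.8, 369.6, 209, 152 and 166 CPM fasted (log2 fold change 2.52 ± 0.60 SE, edgeR adjusted p = 0.0112), with fed replicate 4 apart from its group. Gadd45b, a stress-induced gene, rose from 0.346, 0.295, 0.374, 0.211 and 0.725 CPM to 18.6, 12.8, 2.92, 2.54 and 3.04 CPM (log2 fold change 4.32 ± 0.94 SE, edgeR adjusted p = 0.00577), highest in fasted replicates 1 and 2. Limma voom did not call Gadd45b (adjusted p = 0.258). Cdkn1a, a cell cycle inhibitor, was at 2.52, 3.58, 2.92, 2.67 and 1.56 CPM fed and 13.2, 20.3, 8.92, 31.9 and 4.91 CPM fasted without overlap and was not called (log2 fold change 2.58 ± 0.95 SE, edgeR adjusted p = 0.117), although DESeq2 called it as higher (adjusted p = 0.0281), as did edgeR with only the control groups fitted (0.00159). Of 15 glucagon and CREB-responsive genes 2 rose and none fell (13.3% called, beside 8.12% of all genes). Pde4d rose by 1.25 and Creb3l3, a hepatic factor that induces Fgf21, by 0.58. The coactivator gene Ppargc1a had a log2 fold change of 0.44 and was not called.

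Among 20 secreted factors 2 rose and 1 fell (15% called, beside 8.12% of all genes). Fgf21, the fasting hormone, gave 1, 0, 0, 0 and 6 reads in the fed and 296, 60, 47, 249 and 228 reads in the fasted libraries, and was called by edgeR and not by limma voom (adjusted p = 0.0649). Igfbp2, a binding protein of insulin-like growth factors, was at 495, 667, 319, 410.2 and 359 CPM fed and 2139, 1332, 1229, 1062 and 948 CPM fasted (log2 fold change 1.58 ± 0.35 SE, edgeR adjusted p = 0.00639). Lect2, a hepatokine, fell from 56.2, 68.2, 55.2, 83.9 and 66.0 CPM to 35.8, 26.9, 27.3, 25.9 and 34.0 CPM (log2 fold change -1.13 ± 0.15 SE, edgeR adjusted p = 3.56e-06). Angptl4, an inhibitor of lipoprotein lipase, was at 63.8, 211, 21.0, 81.8 and 45.0 CPM fed and 156, 176, 143, 162 and 147 CPM fasted (log2 fold change 0.89 ± 0.44 SE, edgeR adjusted p = 0.275), and was called as higher without fed replicate 2 (edgeR adjusted p = 0.0104). The fasted values were tight, and the fed ones ran from well below to above them. Igf1 (-0.25) and Gdf15 (-0.70) were not called, while Ghr, the growth hormone receptor, fell from 352, 388, 361, 429.9 and 382 CPM to 251, 197, 225, 233 and 248 CPM (log2 fold change -0.73 ± 0.12 SE, edgeR adjusted p = 8.16e-05). Among 25 genes that respond to growth hormone or are male-biased 5 fell and 1 rose. Hsd3b5, a male-biased steroid enzyme, was at 236, 221, 242, 188 and 119 CPM fed and 23.0, 14.4, 10.4, 3.48 and 15.9 CPM fasted (log2 fold change -3.90 ± 0.56 SE, edgeR adjusted p = 1.23e-04), and Selenbp2 fell by 3.34. None of 21 major urinary protein genes was called by edgeR, DESeq2 or limma voom (2 with an unadjusted edgeR p under 0.05), with a median of -0.62. These are near-identical copies whose reads cannot be divided with certainty.

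Among 30 metabolic nuclear receptors and coregulators 3 rose and 1 fell (13.3% called, beside 8.12% of all genes). Ppara, the receptor for fatty acids, was at 84.4, 118, 58.1, 65.9 and 85.3 CPM fed and 149.9, 120.0, 132, 149.9 and 147 CPM fasted (log2 fold change 0.76 ± 0.15 SE, edgeR adjusted p = 6.01e-04), with fed replicate 2 close to the lowest fasted library. Nr1i3, the xenobiotic receptor CAR, changed from 74.4, 99.0, 52.0, 77.2 and 73.0 CPM to 307, 252.4, 202, 209.6 and 229 CPM (log2 fold change 1.68 ± 0.21 SE, edgeR adjusted p = 6.94e-06). Nr1h4, the bile acid receptor FXR, rose by 0.50, and the thyroid hormone receptor gene Thrb fell by 0.50 on the log2 scale. Without fed replicate 3 the edgeR adjusted p of Thrb was 0.0519.

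Bile acid genes went both ways, with 4 of 25 higher and 4 lower. Cyp8b1, which decides how much cholic acid is made, was at 461, 462, 305, 351 and 324 CPM fed and 967, 1357, 1171, 938 and 959.6 CPM fasted (log2 fold change 1.50 ± 0.20 SE, edgeR adjusted p = 1.18e-05). Cyp7a1, the first and limiting step, was at 66.1, 22.5, 31.2, 88.1 and 97.8 CPM fed and 229.5, 382, 87.0, 215 and 104 CPM fasted and was not called (log2 fold change 1.73 ± 0.64 SE, edgeR adjusted p = 0.117), although DESeq2 called it as higher (adjusted p = 0.0301). A pair of canalicular pumps parted: Abcb4, which exports phosphatidylcholine, rose from 158, 255, 235, 161 and 194 CPM to 549.8, 544, 578, 640.3 and 489 CPM (log2 fold change 1.48 ± 0.13 SE, edgeR adjusted p = 9.85e-10), and Abcb11, which exports bile salts, fell from 514, 448, 546, 471 and 527 CPM to 224, 238, 190.4, 185 and 211 CPM (log2 fold change -1.26 ± 0.14 SE, edgeR adjusted p = 6.22e-08). In neither gene did a fasted library reach the fed range. Cyp2c70, which makes the muricholic acids of mice, fell from 393, 245, 300.4, 774 and 244 CPM to 47.4, 43.6, 39.5, 32.2 and 31.1 CPM (log2 fold change -3.34 ± 0.37 SE, edgeR adjusted p = 6.19e-06). Of 13 tested Cyp2c genes 4 fell, 1 rose and 8 were not called (median -0.37), beside 8.12% of all genes called. Cyp2c29 fell by 1.91 and Cyp2c55 by 3.80 on the log2 scale.

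Among drug-handling genes the glutathione S-transferases had 11 of 21 members lower and 1 higher (median -0.95). The mu-class genes lie in a row on chromosome 3 (GRCm38), among them Gstm7 (bases 107926334 to 107931817), Gstm6 (bases 107938847 to 107943749), Gstm3 (bases 107963696 to 107969283), Gstm1 (bases 108012255 to 108017973) and Gstm4 (bases 108040408 to 108044894). Gstm3 fell from 123, 132, 175, 144 and 141 CPM to 11.7, 14.8, 21.6, 12.5 and 22.0 CPM (log2 fold change -3.12 ± 0.32 SE, edgeR adjusted p = 2.33e-06). Gstm1 was at 1733, 2023, 2079.8, 1836 and 1436 CPM fed and 687, 778, 942, 457 and 957 CPM fasted (log2 fold change -1.25 ± 0.17 SE, edgeR adjusted p = 1.13e-05). Gstm4, Gstm6 and Gstm7 fell by 1.15, 1.66 and 0.95 on the log2 scale, with the caveat of shared reads given for the Cyp4a and Acot copies. The alpha-class genes Gsta3 and Gsta4 fell by 1.33 and 1.33, and the pi-class genes Gstp1 (-0.86) and Gstp2 (-0.87) were not called, though Gstp1 was called by DESeq2 (adjusted p = 0.0468) and without fasted replicate 3 (edgeR adjusted p = 0.0413). No gene of 28 UDP-glucuronosyltransferases and sulfotransferases and none of 10 Cyp2b and Cyp3a genes was called by edgeR. An unadjusted p under 0.05 was held by 6 and 0 of them, and DESeq2 called 1 and 0 (Ugt1a5), limma voom none. Cyp1a2, which oxidises caffeine and aromatic amines, fell from 1024, 899, 765, 972 and 749.7 CPM to 315, 341, 419, 332 and 343 CPM (log2 fold change -1.33 ± 0.16 SE, edgeR adjusted p = 1.06e-06), and of 18 carboxylesterases 5 fell. Adh1, the alcohol and retinol dehydrogenase, was at 1581, 1583, 1997, 1787 and 1676 CPM fed and 873, 675, 849, 682 and 963 CPM fasted (log2 fold change -1.09 ± 0.13 SE, edgeR adjusted p = 2.34e-07).

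Vitamin A genes were called in 11 of 20 cases, 4 higher and 7 lower. Retsat, which saturates retinol, was at 278, 423, 258, 169 and 201 CPM fed and 1261, 1384, 1565, 1804 and 1541 CPM fasted (log2 fold change 2.51 ± 0.21 SE, edgeR adjusted p = 2.58e-08). The lowest fasted library stood well above the highest fed one. Rbp4, the plasma carrier of retinol, rose from 2576, 2808, 2206, 2452 and 2105 CPM to 3999, 3868, 3735, 3831 and 3620.3 CPM (log2 fold change 0.65 ± 0.10 SE, edgeR adjusted p = 3.99e-05). Rdh11, a retinal reductase, fell from 96.2, 42.7, 51.6, 63.2 and 38.7 CPM to 20.6, 20.3, 12.8, 14.4 and 15.3 CPM (log2 fold change -1.81 ± 0.24 SE, edgeR adjusted p = 2.07e-05). Cyp26a1, which degrades retinoic acid, fell by 2.76 (not called by limma voom, adjusted p = 0.106, or with only the control groups fitted, 0.0634), the retinol-binding protein receptor Stra6l by 0.73 and the reductase Dhrs3 by 0.55 on the log2 scale.

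Of 23 apolipoprotein and lipoprotein assembly genes 6 rose and none fell, a count of 3 without fed replicate 3. Apoa4, a component of triglyceride-rich lipoproteins, was at 43.9, 104, 45.5, 23.7 and 121 CPM fed and 238, 1652, 342, 610.0 and 424 CPM fasted (log2 fold change 3.27 ± 0.67 SE, edgeR adjusted p = 0.00334), with fasted replicate 2 far above the rest. Mttp, which loads lipid onto apolipoprotein B, rose by 0.57 on the log2 scale. Apoc3 had a value of -0.18 and was not called.

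Of 36 complement and coagulation genes 15 fell, 21 were not called and none rose (median -0.35), and of 26 acute phase genes 8 fell, 17 were not called and 1 rose (median -0.52), beside 4.13% of all genes that fell and 3.99% that rose. C8a and C9, of the membrane attack complex, were at 682, 716, 666, 703 and 720.3 and 512, 456, 640.4, 653 and 699 CPM in the fed and 389, 325, 386, 388 and 452 and 262, 292, 341, 378 and 301 CPM in the fasted libraries (log2 fold changes -0.85 ± 0.12 and -0.91 ± 0.14, edgeR adjusted p = 6.00e-06 and 3.20e-05). The 3 fibrinogen chains fell by 0.61 (Fga), 0.53 (Fgb) and 0.64 (Fgg) on the log2 scale. Orm1, an acute phase glycoprotein, went from 512, 524, 635, 526 and 664 CPM to 236, 308, 305, 371 and 276 CPM (log2 fold change -0.93 ± 0.14 SE, edgeR adjusted p = 1.50e-05). Lbp, which binds bacterial lipopolysaccharide, was the 1 that rose, by 0.63. Saa1 and Lcn2, strongly induced in inflammation, were not called (-1.60 and -1.03), and both were highest in fed replicate 5, at 419 and 78.3 CPM. Hamp, which encodes the iron hormone hepcidin, fell into 2 ranges in the fasted libraries, 4.35, 20.1, 354, 28.6 and 317 CPM against 497, 388, 413, 122 and 487 CPM fed (log2 fold change -1.40 ± 1.31 SE, edgeR adjusted p = 0.662).

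Of 34 genes of chaperones, translocation and the unfolded protein response in the secretory pathway 12 fell (7 without fed replicate 4), 22 were not called and none rose (median -0.45). Pdia6, a disulfide isomerase, was at 205, 226, 183, 261 and 206 CPM fed and 115, 146, 99.3, 103 and 114 CPM fasted (log2 fold change -0.90 ± 0.19 SE, edgeR adjusted p = 0.00241). Sec61b, a subunit of the translocation channel, fell by 1.03, and Ern1, the stress sensor IRE1, by 0.68 on the log2 scale. Hspa5, the chaperone BiP, had a value of -0.42 and was not called (edgeR adjusted p = 0.390), except with only the control groups fitted (0.0325). Of 28 interferon-stimulated genes 7 fell and none rose, among them the immunoproteasome subunits Psmb8 and Psmb9 (by 1.13 and 1.22) and the antiviral gene Bst2, from 90.2, 122, 108, 90.1 and 108 CPM to 47.2, 40.3, 54.1, 46.3 and 60.7 CPM (log2 fold change -1.06 ± 0.15 SE, edgeR adjusted p = 5.14e-06). Ifit1 (-0.48) was not called.

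Of 35 autophagy and lysosome genes 7 rose and 2 fell. Bnip3, a receptor for the removal of mitochondria, was at 51.0, 57.0, 50.7, 67.2 and 48.5 CPM fed and 155, 161, 140.1, 154 and 121 CPM fasted (log2 fold change 1.41 ± 0.22 SE, edgeR adjusted p = 1.41e-04), and Map1lc3a, a coat protein of autophagosomes, rose by 0.89. Ctsb, a lysosomal protease, fell by 0.41 on the log2 scale.

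Several large sets of cell machinery were called no more often than genes at large. None of 79 nuclear genes of the respiratory chain and ATP synthase and none of its 13 mitochondrial genes was called, 1 of 81 cytosolic and 2 of 76 mitochondrial ribosomal protein genes fell, and none of 21 clock genes was called by edgeR. An unadjusted p under 0.05 was held by 8 of the 79, 1 of the 13 and 5 of the 21, and DESeq2 called Sdha, none and Nfil3, limma voom none. Nr1d1, a repressor of the clock loop, was at 188, 170.1, 133, 154 and 137 CPM fed and 212, 94.4, 117, 67.0 and 144 CPM fasted (log2 fold change -0.30 ± 0.24 SE, edgeR adjusted p = 0.575). Per1, a clock gene that glucocorticoids also induce, was at 18.8, 35.2, 5.78, 24.1 and 31.3 CPM fed and 93.6, 58.1, 63.7, 30.4 and 28.6 CPM fasted (log2 fold change 1.25 ± 0.50 SE, edgeR adjusted p = 0.150). None of 14 immediate early genes was called by edgeR (1 with an unadjusted p under 0.05), and DESeq2 called 1, Jun. Of 24 genes of ATF4 and the integrated stress response 2 rose and 2 fell (16.7% called, beside 8.12% of all genes). Atf4 itself had a log2 fold change of -0.17 and was not called. Atf5, a related factor, rose from 296, 301, 217, 275 and 240.0 CPM to 762, 779, 584, 489.9 and 655 CPM (log2 fold change 1.30 ± 0.14 SE, edgeR adjusted p = 1.10e-07).

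Among called genes outside these groups, large falls included Aqp8, a water and peroxide channel, from 89.3, 64.8, 85.4, 102 and 55.1 CPM to 10.02, 14.2, 9.19, 10.1 and 17.4 CPM (log2 fold change -2.71 ± 0.23 SE, edgeR adjusted p = 1.57e-08), and Car3, carbonic anhydrase 3, from 2624, 1933, 1887, 2403 and 2250.3 CPM to 912, 299, 229, 177 and 454 CPM (log2 fold change -2.42 ± 0.52 SE, edgeR adjusted p = 0.00479). Fasted replicate 1 was the highest of its group for Car3. Cdh1, an adhesion protein of periportal hepatocytes, fell by 1.51 and Ly6e, a surface protein, by 1.46 on the log2 scale. Large rises included Peg3, an imprinted zinc finger gene, from 3.51, 6.28, 5.30, 4.04 and 3.35 CPM to 24.4, 21.8, 49.6, 42.5 and 17.9 CPM (log2 fold change 2.80 ± 0.31 SE, edgeR adjusted p = 9.48e-07), and Slc4a4, a sodium bicarbonate cotransporter, from 64.7, 65.7, 75.4, 78.0 and 67.1 CPM to 205, 191, 178, 184 and 157 CPM (log2 fold change 1.38 ± 0.13 SE, edgeR adjusted p = 2.10e-09).

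**Figure D4:**
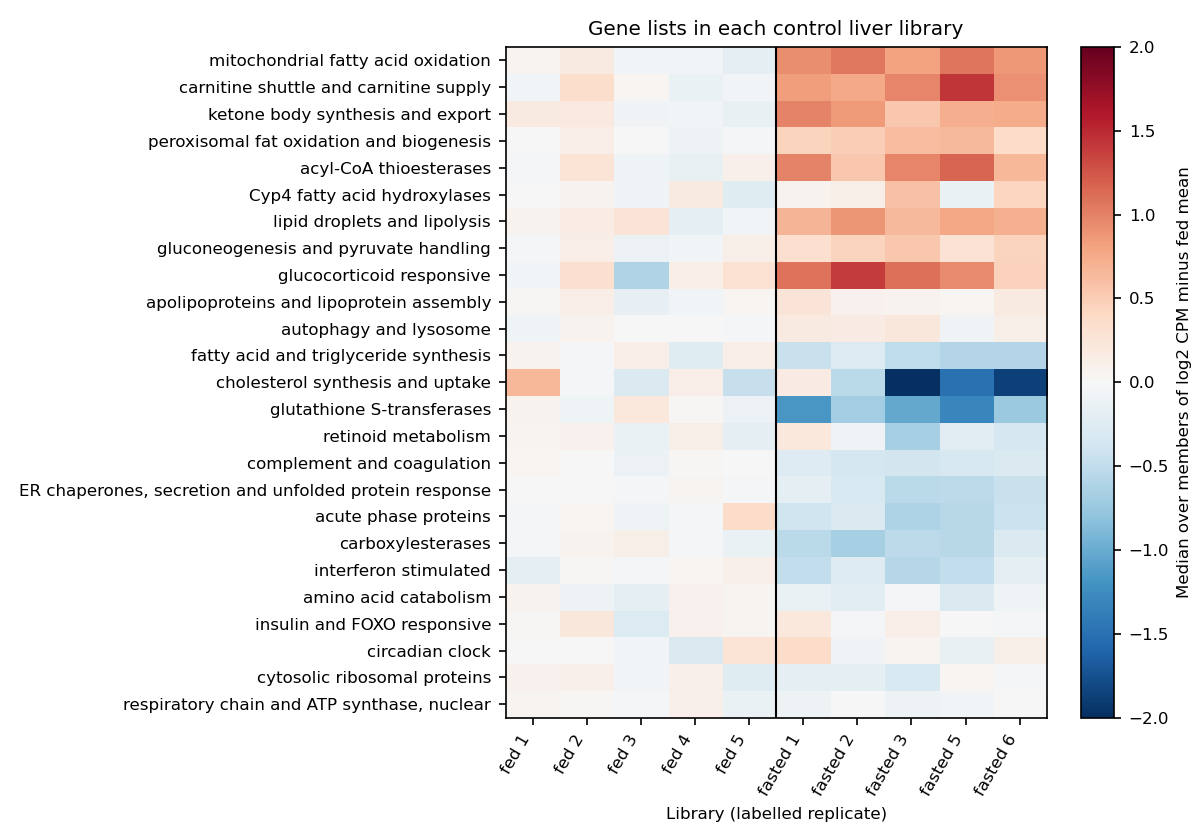
Rows are 25 gene lists and columns the 10 libraries, and colour gives the median over members of log2 CPM minus the mean of the fed libraries (blue low, red high). The rows of the carnitine shuttle and of mitochondrial and peroxisomal fat oxidation are red and the glutathione transferase row blue in all 5 fasted libraries. The Cyp4 row lies between -0.13 and 0.59 in them. The cholesterol row is pale in fasted replicate 1 and dark blue in replicates 3, 5 and 6.

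In bulk tissue, fewer cells of a type and less RNA per cell cannot be told apart. The summed level of 12 hepatocyte markers lay between 84575 and 120022 CPM in the fed and between 81026 and 146590.2 CPM in the fasted libraries, and 2 of the 12 rose (Apoa1 and Apob) and 2 fell (Fgb and Serpina1c). Of 13 Kupffer cell and macrophage markers none was called by edgeR, DESeq2 or limma voom, 4 with an unadjusted edgeR p under 0.05 (sums of 214 to 323 CPM fed and 197 to 240 CPM fasted), and of 14 endothelial markers 1 rose, Lyve1 (203 to 319 and 259 to 347 CPM). Of 13 stellate cell and fibroblast markers 2 fell (211 to 291 and 156 to 251.9 CPM), Col3a1 by 1.33 and Col1a1 by 1.17. For Col1a1 the edgeR adjusted p was 0.0933 without fed replicate 5 and 0.0512 without fasted replicate 5, and it was 0.0533 with only the control groups fitted. The 9 listed cholangiocyte markers summed to 76.4 CPM in 1 fed library, replicate 3, and to between 17.7 and 40.2 CPM in the others, and 1 of the 8 tested fell, Spp1. Of 10 kidney tubule markers 6 were tested and none was called by any of the 3 tools (1 with an unadjusted edgeR p under 0.05), with sums over all 10 of 0 to 3.39 CPM fed and 0.0482 to 22.7 CPM fasted, the last in replicate 5. Of 15 lymphocyte, 9 neutrophil and 6 adipocyte markers 14, 4 and 2 were tested and none was called by any of them, with 1, 0 and 0 at an unadjusted edgeR p under 0.05 (sums over all listed markers of 9.54 to 21.1, 3.79 to 12.2 and 4.36 to 14.9 CPM fed and 11.9 to 19.6, 2.75 to 6.68 and 2.41 to 9.01 CPM fasted, with Lep without a read in any library), and of 6 red blood cell markers 1 fell, Alas2, by 0.76. Of 10 exocrine pancreas markers, of which Cela3b and Pnlip had no read, 3 were tested, 1 fell and 2 were not called, with a highest log2 fold change of 0.23. The 1 that fell was Cela1, from 28.7, 27.2, 24.5, 37.7 and 29.0 CPM to 5.86, 3.43, 5.41, 6.82 and 8.48 CPM (log2 fold change -2.28 ± 0.24 SE, edgeR adjusted p = 4.43e-08). Cela1 made up most of the sum over all 10 markers in each library, 27.8 to 40.6 CPM fed and 3.85 to 8.82 CPM fasted. Beside these counts of markers, 8.12% of all genes were called. The part of cell composition in the gene results was not tested.

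The knockout livers, 6 fed and 6 fasted libraries of other samples, allow a test of whether a fasting effect depends on Gpt2. In them 1029 genes were called (6.14%), 483 higher (2.88%) and 546 lower (3.26%). Of the 1360 genes called in control livers 691 were also called there in the same direction, which is 50.8% of the control and 67.2% of the knockout calls, and none in the opposite direction. The sign of the change was shared by 639 of the 668 genes that rose and 673 of the 692 that fell in control livers, and by 65.7% of all genes tested. Cpt1a changed by 1.70 in control and 1.33 in knockout livers, Cyp4a14 by 6.20 and 4.86, Thrsp by -4.38 and -2.81, and Gstm3 by -3.12 and -2.67. These genes were named by their change in control livers, so their smaller changes in knockout livers are no test of a difference. None of them passed the test of the difference. By edgeR's test of the difference 1 gene passed (0.00597%), and 786 genes (4.69%) had an unadjusted p under 0.05. DESeq2 called 6, and without 1 library in turn edgeR called 0 or 1. That gene was Zfp871, a zinc finger gene, at 18.3, 26.3, 11.9, 19.7 and 18.4 CPM in the fed and 29.1, 20.2, 23.98, 24.4 and 29.5 CPM in the fasted control libraries. Its log2 fold change was 0.43 in control and -0.99 in knockout livers, a difference of 1.42 ± 0.25 SE (edgeR adjusted p = 0.0284). It lost the call without any 1 of control fed replicates 1, 3, 4 and 5, control fasted replicates 1 and 6, knockout fed replicates 1, 4 and 5 or knockout fasted replicates 1, 3, 4 and 6 (edgeR adjusted p up to 0.112). The next smallest p belonged to Colgalt2, a collagen galactosyltransferase, with 70, 26, 59, 10 and 64 reads in the fed and 2, 0, 0, 1 and 0 in the fasted control libraries (edgeR adjusted p of the difference = 0.214, DESeq2 adjusted p = 6.44e-04). The sterol list had 18 of 24 genes lower in the knockout livers and a median of -1.88, beside 6 and -0.93 in control livers, and none of its genes passed the test of the difference. Acute phase genes had medians of 0.27 and -0.52 in knockout and control livers, likewise with no gene past that test.

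**Figure D5:**
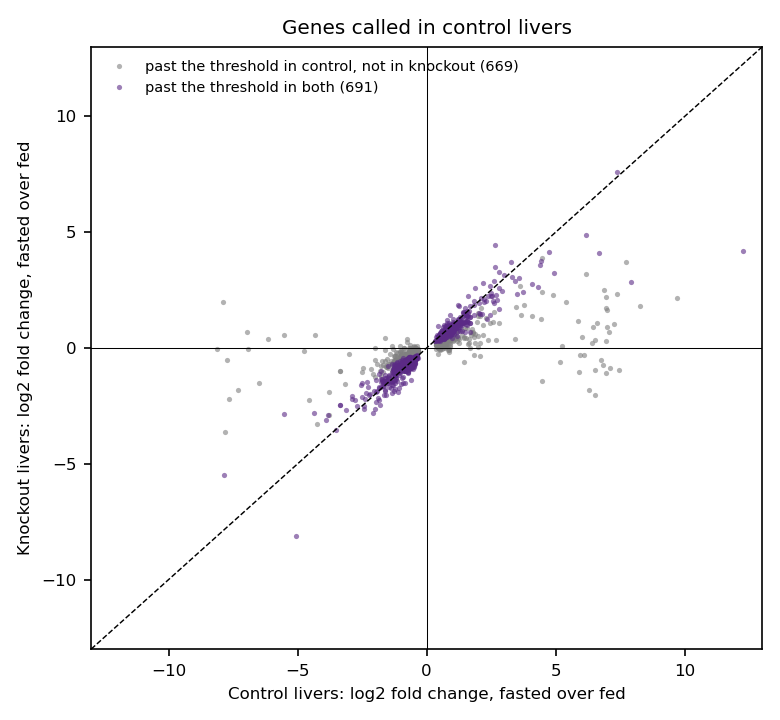
Each point is 1 of the 1360 genes called in control livers, with its log2 fold change there on the x axis and in knockout livers on the y axis, and the dashed line marks equal change. The 691 genes called in both (purple) share their sign, as none was called in opposite directions. Points were chosen by their call in control livers, so their place about the line is no test of the difference. Points at values beyond 5 include genes with few or no reads in 1 group, such as Acot5, whose fitted fold changes are not bounds.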

How the data were processed

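Liver RNA taken with oligo-dT, per the labels' protocols, was sequenced from 24 mouse libraries in 4 labelled groups of 6, control and Gpt2 knockout, fed or fasted for 18 h. Per the submitters' processing notes, the authors used bcl2fastq, the aligner STAR 2.5.1a and, from Subread, the counter featureCounts 1.4.6-p5, with GRCm38. Annotation release and strand setting were not given in the sources used here. Read counts per gene and RPKM per gene, both as deposited, were used. Counts served the tests and CPM, and the authors' deposited RPKM served only comparisons of level between genes. Symbols came from the reference annotation for 40254 of 41388 genes (97.3%).

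One table, of control fed replicate 6, ends after 965 complete lines on chromosome 1 and was left out, as was control fasted replicate 4. The other 22 libraries, with 18.4 to 55.3 M counted reads, entered 1 fit of 4 groups with edgeR 4.0.16 (robust quasi-likelihood, TMM factors, filterByExpr with a minimum count of 10 and total of 15, no covariates) in R 4.3.3, and 24631 genes were not tested. The SE of a log2 fold change is its size over the square root of F, and log2 CPM used a prior count of 2. Counts of paralogs, overlapping and antisense genes may share reads. Across the 20 pairs of libraries within the 2 control groups, chi-square per degree of freedom was 49.5 to 178, so none of these pairs agreed within counting noise.

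The members, gene lists and tests were chosen with earlier results of these data known, so list counts are descriptions and no list was tested. Named genes are Gpt2 and Gpt, the 20 largest log2 changes each way above a mean log2 CPM of 2, the 10 largest CPM changes and 10 smallest p each way, up to 6 called members per list, chosen anchor genes and the 5 smallest p of the difference between genotypes. Some genes under that rule are not reported here, and members outside it were named after their values were seen. Library measures were compared with exact permutation tests. The fitting code was tested on simulated data. RefSeq promoter windows were matched by symbol for 11359 of 16633 tested genes with a symbol. The alternatives were RLE factors, library totals, 2 filters, DESeq2 1.42.0, limma 3.58.1 voom, narrower groups and gene sets, a random block, control fasted replicate 4 included and each library left out.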

Additional observations from a re-analysis of the deposited data

Results flagged for a closer look

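In 32 of 382 groups of 5 values (8.38%) 1 library lay apart, by the ratio of its gap from the nearest library to the range of the group (above 0.71 for 5 samples). That cut marks about 1 in 20 groups of independent, normally distributed values. Groups with few reads, such as those of Acot5 and Pnpla3, do not meet this, so the 8.38% measures no excess.

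Fasted replicate 1 was high for the collagen gene Col3a1 (11.2 CPM), the sterol gene Sc5d (322 CPM) and the ketone body gene Bdh1 (313 CPM). Fasted replicate 2 was high for Lcn2 (28.8 CPM), Saa1 (83.7 CPM), Cyp4a10 (5235 CPM) and Apoa4 (1652 CPM), and low in genes with a read, at 17011. Fasted replicate 3 was high for Cyp1a2 (419 CPM). In fasted replicate 5 Crot (1099 CPM) and the thioesterase genes Acot1 (370.4 CPM) and Acot2 (72.7 CPM) were high, and Cdh1 (15.0 CPM), Gaa (112 CPM) and Pde4d (5.37 CPM) low. The 0.0241 CPM of Pnpla3 in fasted replicate 6 is 1 read.

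Among the fed libraries, replicate 2 was high for Ppargc1a (17.6 CPM) and Mpc1 (28.0 CPM). Replicate 3 was high for Col3a1 (30.1 CPM), Slc16a1 (51.8 CPM), Cs (158 CPM) and Nudt7 (629 CPM). Replicate 4 was high for Mt1 (86.8 CPM), Cyp26a1 (42.4 CPM) and Cyp2c70 (774 CPM) and low for Acads (127 CPM) and Gpam (119.9 CPM). Replicate 5 was high for the inflammation genes Lcn2 (78.3 CPM) and Saa1 (419 CPM), for Gpt (498 CPM) and for Fgf21 (0.167 CPM, 6 reads) and Acot5 (0.0279 CPM, 1 read).

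The fasting effect on Zfp871 differed between genotypes by 1.42 on the log2 scale, by edgeR's test of the difference. The control fasted library that was left out held 304704 reads of Kap.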

How the results depend on the processing

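No paired analysis was possible because the numbers in the sample titles do not repeat across the groups compared. A random block for neighbouring title numbers (limma voom, correlation -0.0128) called 1383 genes, 12 of them falling sterol genes in place of 6. Calls in control livers numbered between 1193 (voom) and 1646 (DESeq2) in the other settings that kept the same 10 libraries, and between 1088 and 1434 (541 to 709 higher, 524 to 725 lower) without 1 library in turn. Including control fasted replicate 4 lowered the calls to 805 in control livers (426 higher, 379 lower), to 379 in knockout livers (185 higher, 194 lower) and to 0 for the difference of genotypes. With it, 6 peroxisomal and 6 lipid droplet genes rose in place of 12 and 10, 1 apolipoprotein and 2 autophagy genes in place of 6 and 7, and 1 complement and 0 acute phase genes fell in place of 15 and 8. The difference of genotypes gave 6 calls with DESeq2 (5 higher, 1 lower) and 0 to 1 without 1 library in turn. The difference in genes with a read passed its threshold without control fed replicate 5, at 1048, with a range of 685 to 1048 over the libraries left out. The share of reads in the 20 most abundant genes, 0.430 points higher in fasted libraries, was -0.993 with control fasted replicate 4 and -0.947 to 1.79 without 1 library, below 0 without fasted replicate 1 or 2. Uncalled genes that changed sign were Cps1 (-0.20 with control fasted replicate 4, -0.027 to 0.12 without 1 library, below 0 without fasted replicate 3), Pex5 (-0.081 with control fasted replicate 4) and Lcn2 (-1.58 to 0.064 without 1 library, above 0 without fed replicate 5). The cause of these changes was not tested. Of 148 genes given with a call, 6 lost it without 1 library, 53 in another setting (7 where the 10 control libraries stayed the same) and 93 kept it in all. Of 40 given without a call 15 gained one in some setting, 10 of them with DESeq2. Depth limits genes with few reads, such as Acot5, Fgf21 and Pnpla3, whose fitted fold changes are not bounds, and the deposited tables give no molecular identifiers.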
